A study of Homo sapiens with 12 samples.

Results

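The 38 genes described here are a fixed set of the unfolded protein response of the endoplasmic reticulum (ER), chosen by gene symbol out of the 33331 genes listed in the study's count tables. All 38 were listed in both tables and all 38 passed the filter on low counts in each comparison. Gene-level RNA-seq counts were available for 12 libraries of SW480, a human colorectal adenocarcinoma cell line, in 4 groups of 3 biological replicates. The first pair of groups came from 1 SW480 clone in which ALDH1B1, a mitochondrial aldehyde dehydrogenase, had been knocked out. That clone carried either EGFP, a green fluorescent protein without enzymatic activity, or ALDH1B1 itself. The second pair came from the parental SW480 line, kept for 24 h with either the solvent DMSO or 2 µM of an inhibitor selective for ALDH1B1. All cells were grown in RPMI medium with serum, and the RNA was selected for poly(A). The knockout was a single clone, the re-expressed ALDH1B1 stood above its parental level, and no label names the promoter driving either construct.

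The ER is where secreted and membrane proteins are folded, glycosylated and disulfide-bonded. When unfolded proteins accumulate there, the membrane sensors IRE1 (encoded by ERN1), PERK (EIF2AK3) and ATF6 start the unfolded protein response: IRE1 splices the XBP1 messenger RNA, PERK slows translation and raises ATF4, and ATF6 is cut to release a transcription factor. Their targets include the luminal chaperones, of which HSPA5 (BiP) is the best known reporter, the disulfide isomerases, the degradation machinery that returns misfolded proteins to the cytosol, and the translocon through which new proteins enter. Gene-level counts do not show whether XBP1 was spliced, and they carry no measure of the phosphorylation of PERK or IRE1 or of the cleavage of ATF6.

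Promoter sequence of the members is shown because the classical ER stress elements, bound by ATF6 and XBP1 together with NF-Y, mark the direct targets of the response. RefSeq promoter windows (GRCh38.p14, 250 bases before to 50 after the start, 300 bases in all) were matched for 34 of the 38 members, and PDIA3, DERL1, DERL3 and SEC24D had no entry. On both strands, the ER stress element ERSE, CCAAT and CCACG with 9 bases of any kind between them, was found in 7 of these 34 windows (20.6%), those of CALR, CANX, CRELD2, ERO1B, HSP90B1, HSPA5 and XBP1, and in 27 of all 35116 windows (0.0769%). The second element, ERSE-II, ATTGG and CCACG with 1 base of any kind between them, was found in 3 members (8.82%), HERPUD1, HYOU1 and SDF2L1, and in 0.0541% of all windows. The core TGACGTGG of the unfolded protein response element was present in DNAJC10 and HYOU1 (5.88% of members against 0.729% of all windows); in HYOU1 it lay at -188 to -181 from the start. HYOU1 holds 2 ERSE-II matches, one at -185 to -175, which overlaps that core, and one at -79 to -69, which does not and is the one printed below. The cyclic AMP response core TGACGTCA was found in CREB3L2 alone (2.94% against 1.85%). The matches describe letters in these windows and not occupied sites. The windows below hold the matches of 3 ERSE members whose levels are followed through the comparisons, of XBP1, and of the 3 ERSE-II members, with the fixed letters of the element in capitals and 20 bases on each side. They are chr9:125241371-125241429 on the minus strand for HSPA5, chr19:12938364-12938422 on the minus strand for CALR, chr22:49918534-49918592 on the minus strand for CRELD2, chr22:28800583-28800641 on the minus strand for XBP1, chr11:119057254-119057304 on the plus strand for HYOU1, chr22:21642094-21642144 on the minus strand for SDF2L1 and chr16:56932005-56932055 on the plus strand for HERPUD1, each written 5′ to 3′ on the strand that reads the element.
HSPA5: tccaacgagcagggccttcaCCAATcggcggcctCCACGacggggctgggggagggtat
CALR: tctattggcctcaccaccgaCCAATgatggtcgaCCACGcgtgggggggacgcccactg
CRELD2: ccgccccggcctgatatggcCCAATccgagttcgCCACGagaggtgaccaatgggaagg
XBP1: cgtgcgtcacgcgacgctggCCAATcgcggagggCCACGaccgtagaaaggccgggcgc
HYOU1: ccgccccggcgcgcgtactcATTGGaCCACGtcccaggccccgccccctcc
SDF2L1: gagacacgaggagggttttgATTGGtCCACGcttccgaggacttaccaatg
HERPUD1: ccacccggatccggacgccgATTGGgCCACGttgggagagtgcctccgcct

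Total counts ran from 32617089 to 39018926 reads per library. Levels are given as CPM, read counts scaled to a common library size with TMM factors (edgeR's trimmed mean of M values) over all 12 libraries. In the order of the replicates, ALDH1B1 stood at 104, 97.8 and 100.3 CPM in the clone carrying ALDH1B1 and at 18.5, 18.8 and 17.9 CPM in the clone carrying EGFP, in which 635 to 683 reads of the gene remained. In the parental line it stood at 45.4, 53.0 and 50.2 CPM with DMSO and at 49.9, 51.0 and 50.4 CPM with the inhibitor. EGFP replicate 3 and DMSO replicate 2 stood apart from their groups: their counts differed from those of the other two replicates by a chi-square per degree of freedom of 9.85 and 14.5 (EGFP) and of 9.54 and 6.47 (DMSO), against 3.77 and 3.50 between those other two. Between the inhibitor libraries this measure ran from 5.33 to 7.53, and between the clone libraries with ALDH1B1 from 3.01 to 4.90. Among the epithelial and colon markers VIL1, which encodes the brush border protein villin, was at 0.0528 to 0.532 CPM in the 6 clone libraries and at 336 to 403 CPM in the 6 parental libraries. Of its exon bases 44.0% are shared with other genes, chiefly USP37 on the opposite strand. The list was divided between the clone with ALDH1B1 and the parental line with DMSO. Of its 10 tested genes 5 were higher and 5 lower in the clone, where 75.3% of all genes passed.

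Levels per length separated the members far more than any treatment did. In the parental line with DMSO, the mean level in CPM per kilobase of exon was highest for CANX (calnexin, a lectin chaperone) at 176 ± 13.7 (SD, n = 3), followed by HSP90B1 (GRP94, a luminal chaperone) at 97.7 ± 3.67, CALR (calreticulin, the soluble counterpart of calnexin) at 95.8 ± 1.32 and HSPA5 at 85.4 ± 14.2. HSP90B1, CALR and HSPA5 did not differ beyond the spread of HSPA5. At the low end stood DERL3, a derlin of secretory tissues, at 0.121 ± 0.0660 CPM per kilobase, from 7 to 27 reads per library. In the clone carrying ALDH1B1 the order changed: CALR stood at 215 ± 9.0, CANX at 192 ± 6.62 and HSPA5 at 180 ± 2.90 CPM per kilobase. Summed over the 38 genes, the level was 7079 to 7136 CPM with ALDH1B1 and 6926 to 7203 CPM with EGFP in the clone, and 5039 to 5654 CPM with DMSO and 5086 to 5214 CPM with the inhibitor in the parental line. The summed levels thus overlapped within each pair of groups and did not overlap between the clone and the parental line.

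**Figure D1:**
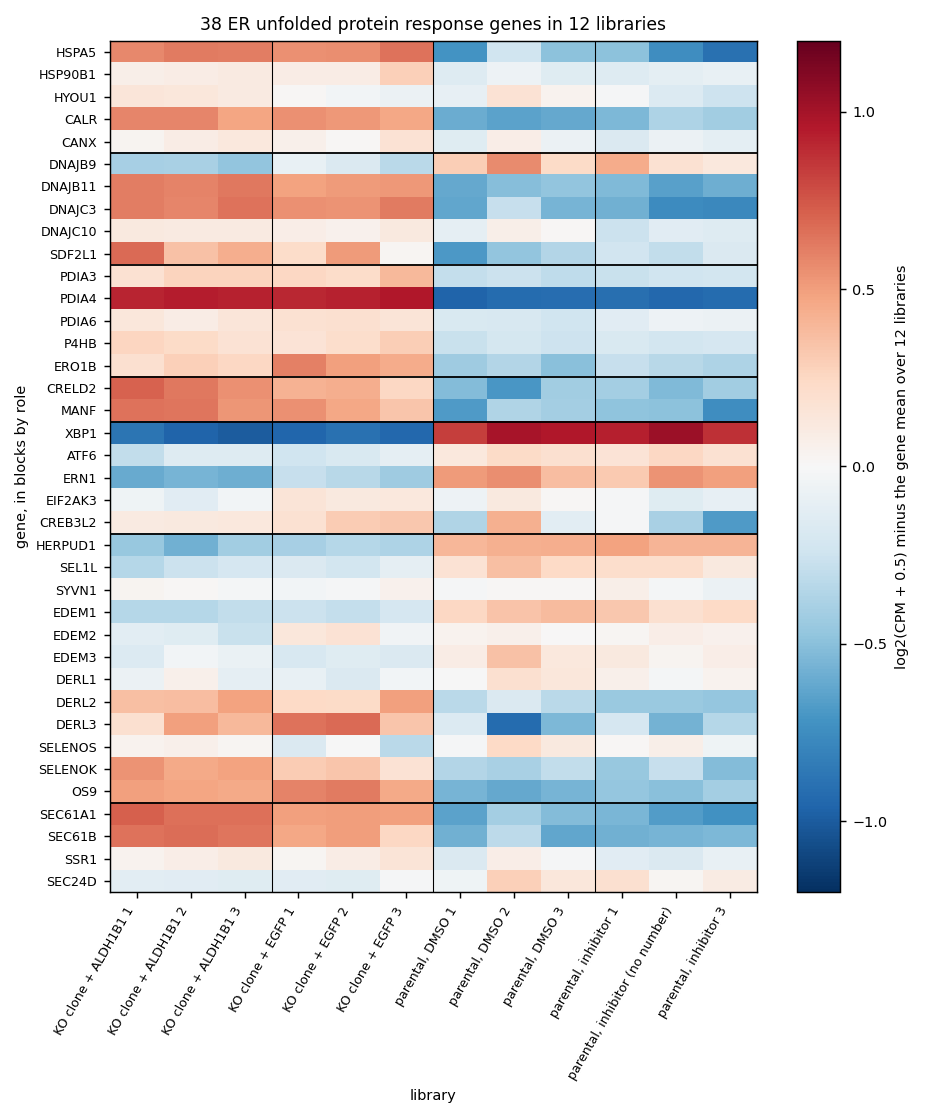
Level of each of the 38 genes (rows, in blocks by role) in each of the 12 libraries (columns), as log2(CPM + 0.5) minus the gene's mean over the 12 libraries. The 6 clone columns and the 6 parental columns differ in colour in most rows, PDIA4 and XBP1 most strongly and in opposite directions, while the groups within each set of 6 differ less.

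The first comparison asked how the clone without ALDH1B1 differed from the same clone with ALDH1B1 put back. HSPA5, the main reporter of the response, was at 691, 712 and 709 CPM with ALDH1B1 and at 674, 678 and 727 CPM with EGFP, so the groups overlapped (log2 fold change, EGFP minus ALDH1B1, -0.01 with SE 0.04; edgeR adjusted p = 0.88). Of the 38 members 10 passed an adjusted p of 0.05, 5 higher and 5 lower with EGFP, in edgeR's quasi-likelihood test adjusted over 17404 genes by the method of Benjamini and Hochberg. Over all tested genes 17.6% passed, 8.36% higher and 9.22% lower. The median log2 fold change of the members was 0.01, against 0.01 over all genes tested. In 16 members the groups did not overlap, against 35.4% of all genes, 16.8% to the higher and 18.7% to the lower side. In bulk RNA a change in the kinds of cells present and a change per cell cannot be told apart. Several other measures moved with these groups, and their part in the results was not tested: fibroblast markers summed to 45.2 to 47.1 CPM with ALDH1B1 and 62.0 to 62.6 CPM with EGFP, with 4 of the 5 tested members higher and COL3A1, DCN, PDGFRA and THY1 under 10 reads in every library, epithelial and colon markers summed to 8379 to 8885 CPM with ALDH1B1 and 7333 to 7567 CPM with EGFP, with 2 of the 9 tested genes higher and 3 lower, and the 317 tested short protein-coding genes (under 1500 bases) outside the members had a median log2 fold change of -0.12. Immune and endothelial markers summed to 2.25 to 2.66 CPM with ALDH1B1 and 2.94 to 3.44 CPM with EGFP, with none of 3 tested genes called. The mitochondrial share of the counts was 3.32% to 3.59% with ALDH1B1 and 3.59% to 5.02% with EGFP.

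Among the sensors and transcription factors, 3 of 5 were higher with EGFP and none was lower. Of all tested genes 8.36% were higher and 9.22% lower. ERN1, the IRE1 sensor, stood at 34.4, 35.7 and 34.9 CPM with ALDH1B1 and at 43.5, 41.9 and 39.1 CPM with EGFP. All EGFP libraries were above all ALDH1B1 libraries (log2 fold change 0.25, SE 0.06; edgeR adjusted p = 0.0074). EIF2AK3, the PERK sensor kinase, stood at 18.0, 17.0 and 18.3 CPM with ALDH1B1 and at 21.0, 20.4 and 20.5 CPM with EGFP, without overlap (0.23, SE 0.07; edgeR adjusted p = 0.030). CREB3L2, an ER-bound transcription factor relative of ATF6 known for driving secretory capacity, stood at 66.4, 67.0 and 67.2 CPM with ALDH1B1 and at 70.0, 76.6 and 77.3 CPM with EGFP, also without overlap (0.17, SE 0.05; edgeR adjusted p = 0.035). ATF6 and XBP1 themselves showed overlapping groups, ATF6 from 51.9 to 57.3 CPM with ALDH1B1 and 53.9 to 59.0 CPM with EGFP, and XBP1 from 60.8 to 66.0 CPM and 62.6 to 65.4 CPM. The ERN1 call held under all 12 alternatives, leaving out each library included. The EIF2AK3 call ended under 8 of them, among them DESeq2 (adjusted p = 0.075), and leaving out ALDH1B1 replicate 1 or 2 or EGFP replicate 1 or 2 (edgeR adjusted p = 0.081, 0.16, 0.11 and 0.051). The CREB3L2 call ended under 7, with edgeR adjusted p = 0.50 in 1 fit over 12 libraries and 0.12, 0.13, 0.085 and 0.10 without ALDH1B1 replicate 1, 2 or 3 or EGFP replicate 2.

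The other members that rose with EGFP were ERO1B and EDEM2. ERO1B, the oxidase that recharges the disulfide isomerases, stood at 20.2, 21.6 and 21.0 CPM with ALDH1B1 and at 27.0, 25.0 and 24.0 CPM with EGFP, with no overlap (log2 fold change 0.29, SE 0.07; edgeR adjusted p = 0.0087). The isomerases PDIA3, PDIA4, PDIA6 and P4HB did not pass, and PDIA4 ran from 388 to 393 CPM with ALDH1B1 and from 384 to 401 CPM with EGFP. EDEM2, a protein of the mannose-trimming step that marks glycoproteins for degradation, stood at 29.1, 28.6 and 26.4 CPM with ALDH1B1 and at 35.0, 36.0 and 30.9 CPM with EGFP, with no overlap although EGFP replicate 3 was the lowest of its group (0.29, SE 0.07; edgeR adjusted p = 0.010). Without ALDH1B1 replicate 3 the EDEM2 call ended (edgeR adjusted p = 0.057). The ERO1B call ended without ALDH1B1 replicate 1 (edgeR adjusted p = 0.0505) or EGFP replicate 1 (0.056).

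The 5 members that fell with EGFP were a luminal chaperone, a secreted ER stress protein, a degradation component and the translocon subunits. SEC61A1, the pore-forming subunit of the translocon, stood at 593, 568 and 567 CPM with ALDH1B1 and at 506, 508 and 506 CPM with EGFP. The EGFP libraries lay within 3 CPM of each other and below all ALDH1B1 libraries (log2 fold change -0.17, SE 0.04; edgeR adjusted p = 0.0079). SEC61B, the small beta subunit, stood at 91.1, 92.6 and 90.8 CPM against 80.2, 81.8 and 69.0 CPM, with EGFP replicate 3 the lowest (-0.24, SE 0.06; edgeR adjusted p = 0.014). SEC61B is one of the short genes, with 1190 bases of exon, and its log2 fold change was -0.22 once a trend over gene length was removed (edgeR adjusted p = 0.0080). The other members of that role did not pass: SSR1, of the translocon-associated complex, stood at 87.2 to 95.4 CPM and SEC24D, a COPII coat subunit, at 23.9 to 26.1 CPM over the 6 clone libraries.

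HYOU1, the nucleotide exchange factor of HSPA5 and carrier of ERSE-II in its promoter window above, stood at 332, 329 and 323 CPM with ALDH1B1 and at 303, 293 and 286 CPM with EGFP (log2 fold change -0.15, SE 0.04; edgeR adjusted p = 0.023). CRELD2, a secreted protein induced by ER stress, stood at 37.3, 35.3 and 33.4 CPM and at 30.5, 30.8 and 26.9 CPM (-0.25, SE 0.07; edgeR adjusted p = 0.016). SELENOK, a selenoprotein of the ER membrane that binds derlins, stood at 49.3, 46.5 and 47.4 CPM and at 41.9, 42.8 and 38.2 CPM (-0.21, SE 0.06; edgeR adjusted p = 0.022). In these genes every EGFP library was below every ALDH1B1 library. Single libraries decided several of these calls: without ALDH1B1 replicate 1, edgeR gave an adjusted p of 0.089 for HYOU1, 0.086 for CRELD2, 0.096 for SELENOK and 0.053 for SEC61A1. Without ALDH1B1 replicate 2 it gave an adjusted p of 0.10 for HYOU1, 0.068 for CRELD2, 0.061 for SELENOK and 0.071 for SEC61B, and without ALDH1B1 replicate 3 an adjusted p of 0.055 for SELENOK. The HYOU1 call also ended in 1 fit over 12 libraries (edgeR adjusted p = 0.087). The fold changes themselves kept their sign in every alternative.

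Of the 28 members not called here, the largest differences were those of DERL3 (log2 fold change 0.27, SE 0.23, from 34 to 61 reads per clone library), DNAJB9 (0.25, SE 0.09), SDF2L1 (-0.22, SE 0.11), SELENOS (-0.19, SE 0.07) and MANF (-0.15, SE 0.06). DNAJB9 encodes the co-chaperone ERdj4, which returns HSPA5 to IRE1; it stood at 9.99, 10.1 and 9.45 CPM with ALDH1B1 and at 12.5, 11.8 and 10.5 CPM with EGFP, without overlap (edgeR adjusted p = 0.072). Without EGFP replicate 3 its edgeR adjusted p was 0.017. SDF2L1, a partner of the J-domain co-chaperones, ranged from 29.7 to 37.6 CPM and from 23.6 to 33.2 CPM, with overlapping groups. In the authors' deposited table of this comparison 9 members were past 0.05, 4 higher and 5 lower, where EIF2AK3 was at an adjusted p of 0.075.

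**Figure D2:**
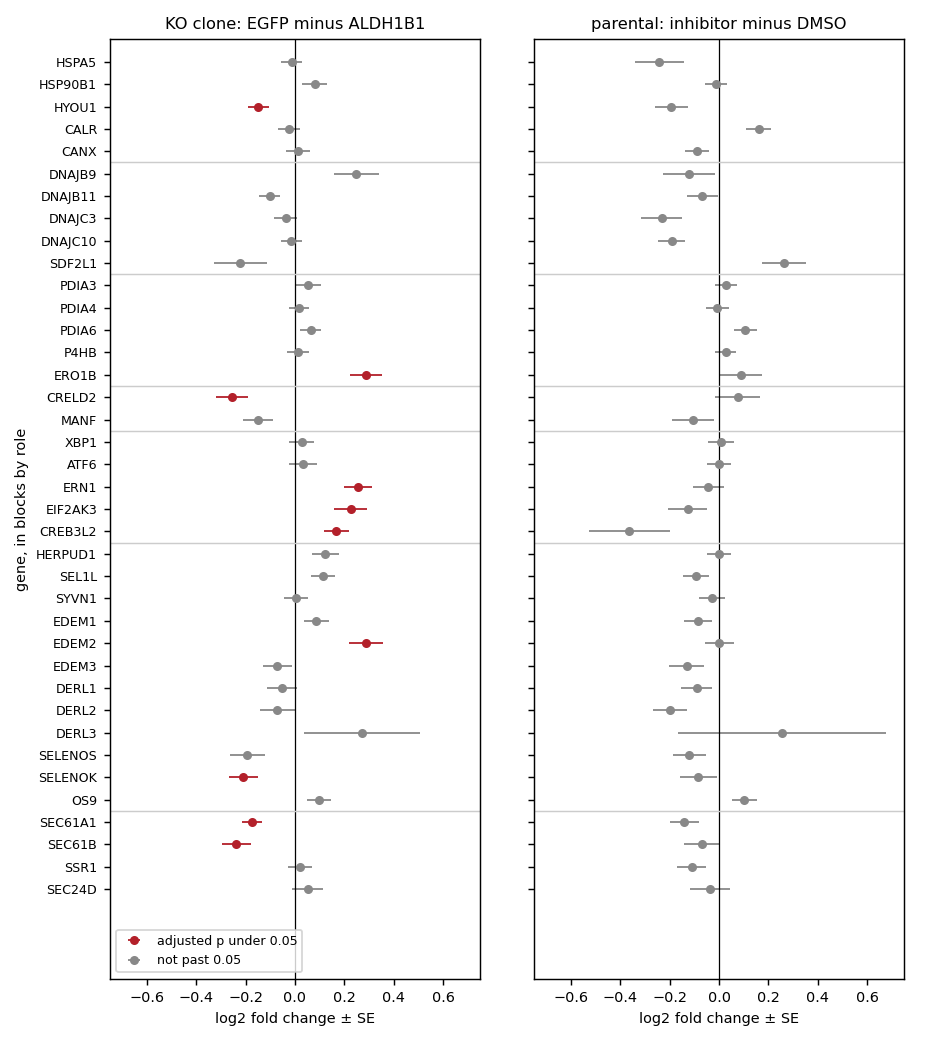
Log2 fold change with its standard error for each of the 38 genes, in the clone (EGFP minus ALDH1B1, left) and in the parental line (inhibitor minus DMSO, right), in blocks by role. Red points passed an adjusted p of 0.05: 10 on the left, 5 to each side of 0, and none on the right.

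**Figure D3:**
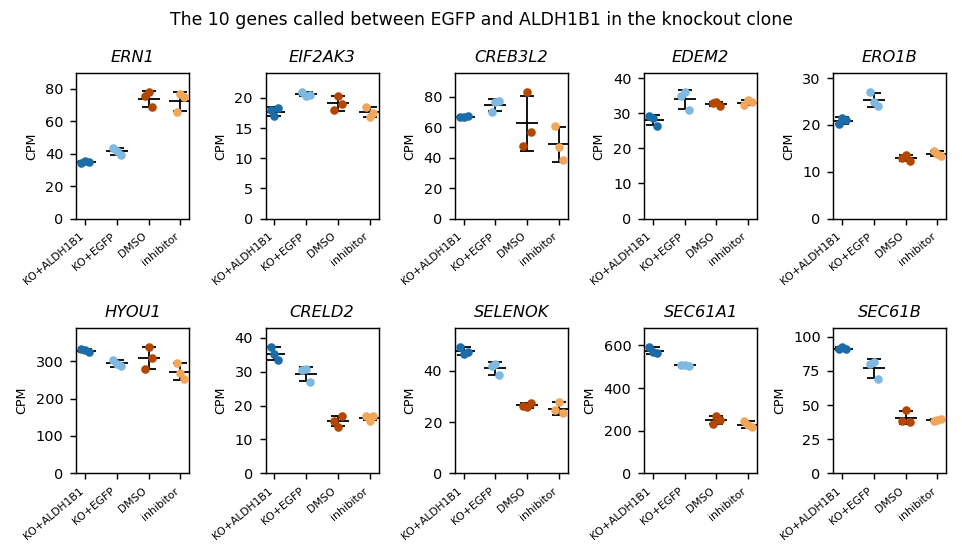
CPM in every library (points), with the group mean and SD (bars), for the 10 genes called in the clone. Within the clone the EGFP and ALDH1B1 points do not overlap in any of the 10 panels, and in 6 of them, ERN1, ERO1B, CRELD2, SELENOK, SEC61A1 and SEC61B, the distance to the parental groups is larger than that between the clone groups.

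The second comparison asked what 24 h of the inhibitor did in the parental line, which keeps its own ALDH1B1. No member passed an adjusted p of 0.05 with edgeR, where 3.99% of the 17848 tested genes did, 1.89% higher and 2.1% lower. DESeq2 called 1 member higher, CALR, and 1 lower, DNAJC10, and so did the authors' deposited table. The median log2 fold change of the members was -0.07, against 0.00 over all genes tested, and 26 of 38 were below 0. In 6 members the groups did not overlap, against 23.5% of all genes, 14.3% to the higher and 9.23% to the lower side.

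HSPA5 stood at 281, 391 and 329 CPM with DMSO and at 328, 276 and 249 CPM with the inhibitor, the second of these from the library whose column carries no number. The groups overlapped, with DMSO replicate 2 the highest and inhibitor replicate 3 the lowest of the 6 (log2 fold change, inhibitor minus DMSO, -0.24, SE 0.10; edgeR adjusted p = 0.19). DMSO replicate 2 held the highest of the 6 values in 20 of the 38 members, and inhibitor replicate 3 the lowest in 12. Without DMSO replicate 1, edgeR called 4 members lower, namely HSPA5 (adjusted p = 0.027), HYOU1 (0.031), DNAJC10 (0.024) and CREB3L2 (0.039). Without DMSO replicate 2 none of the 38 was called and the log2 fold change of HSPA5 was -0.12. Without inhibitor replicate 1, CALR was called higher (edgeR adjusted p = 0.031) and HYOU1 lower (0.038).

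CALR stood at 263, 256 and 261 CPM with DMSO and at 274, 308 and 299 CPM with the inhibitor, without overlap (log2 fold change 0.16, SE 0.05; edgeR adjusted p = 0.077). DNAJC10, the disulfide reductase ERdj5, stood at 104, 119 and 114 CPM and at 94.2, 103 and 101.1 CPM, all inhibitor libraries below all DMSO libraries (-0.19, SE 0.05; edgeR adjusted p = 0.058). SDF2L1 stood at 14.2, 16.6 and 18.1 CPM and at 19.8, 18.9 and 20.5 CPM, again without overlap but to the higher side (0.26, SE 0.09; edgeR adjusted p = 0.11). CREB3L2 had the largest fold change of the list and the widest spread: 47.8, 83.0 and 56.6 CPM with DMSO against 60.9, 47.0 and 38.3 CPM with the inhibitor, overlapping (-0.36, SE 0.16; edgeR adjusted p = 0.23). The coefficient of variation of CREB3L2 was 29.3% within DMSO and 23.4% within the inhibitor group, the highest of the members in both, whereas the median member had 6.57% and 4.30%.

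No sensor passed the test with the inhibitor. ERN1 stood at 75.2, 77.8 and 68.4 CPM with DMSO and at 65.6, 76.6 and 74.5 CPM with the inhibitor, XBP1 at 217, 241 and 237 CPM and at 232, 249 and 225 CPM, and ATF6 at 69.9, 74.8 and 73.2 CPM and at 71.4, 76.0 and 72.5 CPM. The groups overlapped in each of these genes, with edgeR adjusted p-values of 0.76, 0.96 and 0.99. EIF2AK3 stood at 18.0, 20.4 and 19.0 CPM and at 18.6, 16.9 and 17.5 CPM, also overlapping (log2 fold change -0.13, SE 0.08; edgeR adjusted p = 0.40). Of the remaining members, HYOU1 (-0.19, SE 0.07), DERL2 (-0.20, SE 0.07) and DNAJC3 (-0.23, SE 0.08), the last an inhibitor of PERK with a J domain, had the largest negative values, and DERL2 alone of these showed no overlap, at 26.7, 29.8 and 26.8 CPM against 24.6, 24.5 and 24.1 CPM. DERL2 is one of the derlins, membrane proteins of the degradation channel.

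Whether the effect in the clone differed from that of the inhibitor was tested directly as the difference of both log2 fold changes over the 12 libraries. No member passed an adjusted p of 0.05 in edgeR, where 5.11% of 19075 genes did, 1.9% to the positive and 3.2% to the negative side. The largest differences belonged to CREB3L2 (0.51, SE 0.20; edgeR adjusted p = 0.14), SDF2L1 (-0.51, SE 0.15; edgeR adjusted p = 0.053), CRELD2 (-0.35, SE 0.11; edgeR adjusted p = 0.071), DNAJB9 (0.35, SE 0.15; edgeR adjusted p = 0.19) and EIF2AK3 (0.33, SE 0.10; edgeR adjusted p = 0.071). For ERN1 the difference was 0.27 with SE 0.09 (edgeR adjusted p = 0.090). The 10 calls in the clone are therefore not shown to be particular to it. DESeq2 called SDF2L1 (adjusted p = 0.035) and EIF2AK3 (0.048). Single libraries also decided calls, with edgeR adjusted p = 0.012 for SDF2L1 without EGFP replicate 2, 0.037 for EDEM2 without EGFP replicate 3, 0.032 for CREB3L2 without DMSO replicate 1 or inhibitor replicate 1, and 0.032 for CALR without inhibitor replicate 1.

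The largest differences in these genes lay between the cells themselves. The clone carrying ALDH1B1 was set against the parental line with DMSO, a contrast that uses libraries of both comparisons above and in which the line, the single clone, the construct and the solvent cannot be told apart. Of all 19075 tested genes 75.3% passed an adjusted p of 0.05, 38% higher and 37.4% lower in the clone. Of the 38 members 31 passed, 20 higher and 11 lower, a share close to that background, with a median log2 fold change of 0.17 against -0.01 over all genes. In 30 members the 3 libraries of each group did not overlap, against 77.9% of all genes, 39.3% higher and 38.7% lower. When all 6 clone libraries were set against all 6 parental libraries, 19 members were higher and 8 lower without overlap, and 11 overlapped, against 63.2% of all genes without overlap, 32% higher and 31.2% lower. Fibroblast markers summed to 15.1 to 17.5 CPM with DMSO and 45.2 to 47.1 CPM in the clone with ALDH1B1, with 5 of 5 tested members higher, and plasma and secretory cell markers to 114 to 125 CPM and 272 to 308 CPM; their part in these differences was not tested. Nor was that of the epithelial and colon markers, at 7698 to 8088 CPM with DMSO and 8379 to 8885 CPM in the clone with ALDH1B1, or of the mitochondrial share, at 4.53% to 5.12% and 3.32% to 3.59%. Of the 5 tested plasma and secretory markers 2 were higher and 2 lower in the clone, with log2 fold changes from -4.95 to 8.40. SPDEF and AGR2, defining genes of secretory cells, were under 10 reads in every library. No read of TFF3 was listed for the clone, and it stood at 17.4 to 19.7 CPM with DMSO.

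Among the 31 further genes of ER folding and glycoprotein quality control, 13 were higher and 13 lower in the clone. Their median log2 fold change was -0.01, with a range from -2.87 to 1.145. Over all genes 38% were higher and 37.4% lower. Of the members, all 5 disulfide enzymes rose, led by PDIA4 at 388, 393 and 389 CPM in the clone with ALDH1B1 against 105, 108 and 108 CPM in the parental line with DMSO. Its log2 fold change, clone minus parental, was 1.86 with SE 0.05 (edgeR adjusted p = 4.7e-21), a 3.64-fold difference. The other isomerases differed less, with log2 fold changes of 0.53 (PDIA3), 0.46 (P4HB) and 0.33 (PDIA6), and ERO1B with 0.69. Of the luminal chaperones and lectins 4 of 5 rose, 1 of them, CANX, with overlapping groups (edgeR adjusted p = 0.045) and a call that ended under 12 alternatives, among them RLE size factors, no filter on low counts and DESeq2 (adjusted p = 0.093, 0.13 and 0.12). HSPA5, at 691, 712 and 709 CPM, lay above all DMSO libraries, which held 281, 391 and 329 CPM (log2 fold change 1.08, SE 0.09; edgeR adjusted p = 8.0e-11). CALR, at 598, 598 and 555 CPM against 263, 256 and 261 CPM, did so too (1.17, SE 0.05; edgeR adjusted p = 4.3e-16). HSP90B1 differed by 0.21, and HYOU1 was not called, with overlapping groups.

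Of the co-chaperones with SDF2L1, 3 of 5 were higher and 1 lower, against 38% and 37.4% of all genes. DNAJB11 (ERdj3), DNAJC3 and SDF2L1 rose, with log2 fold changes of 1.16, 1.11 and 1.01. DNAJB9 fell, from 16.5, 19.96 and 15.7 CPM in the parental line with DMSO to 9.99, 10.1 and 9.45 CPM in the clone with ALDH1B1, without overlap (-0.82, SE 0.11; edgeR adjusted p = 2.1e-07). Both secreted proteins rose, CRELD2 with 1.19 and MANF, a neurotrophic factor held in the ER by HSPA5, with 1.10. Both translocon subunits rose as well, SEC61A1 with 1.2 and SEC61B with 1.17, while SEC24D fell by 0.27 on the log2 scale.

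Among the sensors and transcription factors none rose and 3 of 5 fell, where 38% of all genes were higher and 37.4% lower. XBP1 stood at 66.0, 62.4 and 60.8 CPM in the clone with ALDH1B1 and at 217, 241 and 237 CPM in the parental line with DMSO (log2 fold change -1.88, SE 0.06; edgeR adjusted p = 2.4e-19). No clone library, with EGFP or ALDH1B1, came near the lowest parental value. ERN1, whose protein splices the XBP1 messenger, was at 34.4, 35.7 and 34.9 CPM against 75.2, 77.8 and 68.4 CPM (-1.07, SE 0.07; edgeR adjusted p = 3.5e-13). ATF6 was at 51.9, 57.2 and 57.3 CPM against 69.9, 74.8 and 73.2 CPM (-0.39, SE 0.06; edgeR adjusted p = 1.4e-06). EIF2AK3, at 18.0, 17.0 and 18.3 CPM against 18.0, 20.4 and 19.0 CPM, overlapped and was not called (-0.10, SE 0.07; edgeR adjusted p = 0.21). XBP1 and HSPA5 differed in opposite directions, and both windows printed above hold an ERSE match. Any part of that element in these levels was not tested.

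Of the genes of ER-associated degradation 4 of 12 were higher, 6 lower and 2 not called. Over all genes 38% were higher and 37.4% lower. HERPUD1, an adaptor of the degradation complex and carrier of ERSE-II, fell to 57.5, 52.8 and 59.0 CPM from 104, 106 and 107 CPM (log2 fold change -0.91, SE 0.05; edgeR adjusted p = 9.8e-14). EDEM1 (-0.66), SEL1L, the scaffold of the ubiquitin ligase complex (-0.53), EDEM3 (-0.29) and EDEM2 (-0.22) also fell. OS9, the lectin that hands glycoproteins to that complex, rose to 176, 173 and 172 CPM from 84.8, 81.7 and 85.0 CPM (1.05, SE 0.05; edgeR adjusted p = 4.1e-15), and SELENOK (0.85) and DERL2 (0.69) rose with it. SYVN1, the ubiquitin ligase itself, was not called, at 75.3, 74.4 and 72.4 CPM against 73.2, 74.3 and 74.3 CPM. DERL3 was called higher from 34 to 54 reads against 7 to 27, and 77.0% of its exon bases are shared with SMARCB1 on the opposite strand, so its reads are uncertain where counting ignored strand. The CANX and DERL1 (edgeR adjusted p = 0.049) calls ended when single libraries were left out, with edgeR adjusted p up to 0.27 for CANX (without DMSO replicate 1) and 0.19 for DERL1 (without ALDH1B1 replicate 3).

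**Figure D4:**
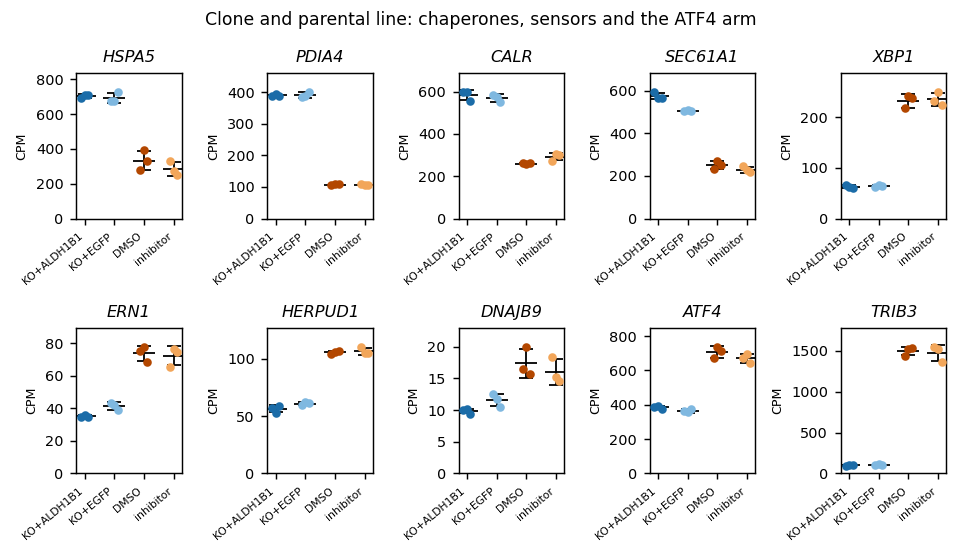
CPM in every library (points), with the group mean and SD (bars), for 8 of the 38 genes and for ATF4 and TRIB3 of the PERK arm. HSPA5, PDIA4, CALR and SEC61A1 stand higher in both clone groups than in both parental groups, and XBP1, ERN1, HERPUD1, DNAJB9, ATF4 and TRIB3 stand lower, with no overlap.

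The wider pathway was read through 164 further genes in 7 lists, of which 163 were in the table of the clone and 164 in that of the inhibitor. In the clone, EGFP against ALDH1B1, 10 of 161 tested genes rose and 25 fell, against the 8.36% of all genes that passed to the higher and the 9.22% that passed to the lower side. The translocon and signal peptidase list had 6 lower and none higher of 25, with SRPRB, a subunit of the signal recognition particle receptor, at 76.6, 77.4 and 70.2 CPM with EGFP against 93.5, 90.2 and 91.1 CPM (log2 fold change -0.28, SE 0.05; edgeR adjusted p = 0.0017). The oligosaccharyltransferase list had 2 lower of 10, TMEM258 (-0.50, SE 0.06; edgeR adjusted p = 5.6e-05) and RPN1 (-0.19, SE 0.04; edgeR adjusted p = 0.0046). Of the ER folding list 4 rose and 3 fell of 31, and of the COPII export list 1 rose and 3 fell of 21. Of the degradation list 3 rose and 6 fell of 29, and of the other sensors and regulators 1 rose, CREBRF (0.58, SE 0.08; edgeR adjusted p = 0.00039), and 2 fell of 27. In the PERK-ATF4 arm 1 of 18 rose and 3 fell, with ATF5 at -0.37 and ASNS, the asparagine synthetase, at 0.51. ASNS shares 44.6% of its exon bases with another gene on the same strand, so its reads are uncertain. Of the exon bases of ATF5, 23.7% are shared with other genes, chiefly NUP62 on the opposite strand.

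With the inhibitor, 5 of 160 tested pathway genes rose and 3 fell, a share close to that of all tested genes (3.99%, 1.89% higher and 2.1% lower). Epithelial and colon markers summed to 7698 to 8088 CPM with DMSO and 8150 to 8471 CPM with the inhibitor, with 1 of 11 tested genes called, and their part was not tested. TMEM258, an oligosaccharyltransferase subunit, fell from 72.3, 74.9 and 74.5 CPM with DMSO to 55.2, 63.6 and 56.9 CPM (log2 fold change -0.35, SE 0.06; edgeR adjusted p = 0.0033). Of its exon bases 20.6% are shared with other genes, chiefly MYRF on the opposite strand. SEC61G (-0.27) and SRP19 (-0.33) were the other genes that fell; the SEC61G call ended without DMSO replicate 2 or 3 or inhibitor replicate 1 or 3, and the SRP19 call when any 1 of the 6 libraries was left out. In the PERK-ATF4 arm 3 of 18 rose, among them DDIT4, an inhibitor of mTORC1 signalling, from 172, 158 and 167 CPM to 216, 218 and 216 CPM (0.37, SE 0.05; edgeR adjusted p = 0.00085). Of the exon bases of DDIT4, 41.2% are shared with an antisense gene on the opposite strand. ATF4 itself ran from 671 to 736 CPM with DMSO and 644 to 694 CPM with the inhibitor, with overlap.

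Between the clone with ALDH1B1 and the parental line with DMSO the PERK-ATF4 arm stood out by size. Of its 18 genes 14 were lower in the clone, 3 higher and 1 not called, with a median log2 fold change of -1.51 against -0.01 over all genes, of which 75.3% passed, 38% higher and 37.4% lower. TRIB3, a pseudokinase induced by ATF4, was at 94.7, 101.1 and 96.7 CPM in the clone and at 1443, 1521 and 1530 CPM in the parental line (-3.94, SE 0.06; edgeR adjusted p = 1.7e-24). ATF4 was at 384, 392 and 377 CPM against 671, 736 and 715 CPM, and ATF5 fell by 3.06 on the log2 scale. The medians of the other lists lay between -0.12 (other sensors and regulators) and 0.21 (COPII export), with 64 genes higher and 68 lower of 161 over all lists, a share near that of all genes.

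**Figure D5:**
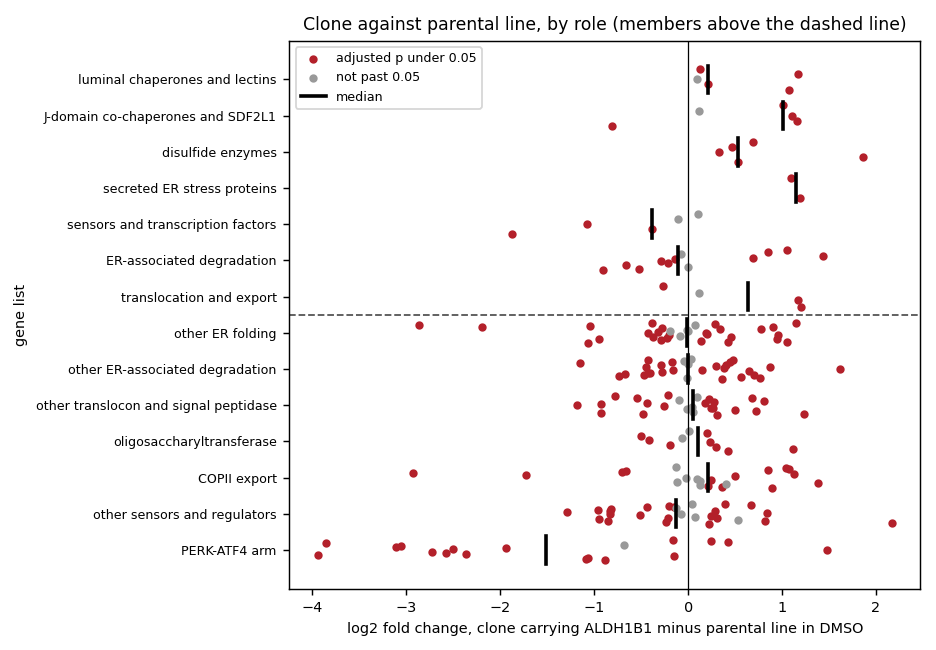
Log2 fold change between the clone carrying ALDH1B1 and the parental line with DMSO for each gene, by list, with the median of each list as a black bar. Disulfide enzymes, secreted proteins and most co-chaperones lie to the right, and the PERK-ATF4 arm has its median at -1.51. Of the sensors and transcription factors 4 of 5 lie to the left, 3 of them past an adjusted p of 0.05.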

How the data were processed

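Poly(A) RNA-seq of 12 libraries was used as deposited. Per the submitters' processing notes, fastp, STAR, DESeq2 and hg38 were used; they name no counting program, strand setting or annotation. The deposited tables hold raw read counts per gene; the authors' log2 fold changes and adjusted p-values in them were used only where named as such. Another 24 per-sample columns were not used. Gene spans and lengths equalled those of GENCODE release 29 for all 33331 genes. Counts were tested with edgeR 4.0.16 (R 4.3.3; TMM, its default filter on low counts, quasi-likelihood test, Benjamini-Hochberg over all tested genes, threshold 0.05), in 6 libraries for each stated comparison and in 12, on genes in both tables, for the difference and for clone against parental line. The p-values rest on the spread between biological replicates, with 1 estimate per gene shared by the groups of a fit. In the fits over 12 libraries these are all 4 groups. The clone libraries come from 1 clone, so the spread between clones is not covered. The tests were checked on simulated counts. Planted 2-fold shifts were recovered at 98% to 100%. For 1.5-fold the values were 100% (EGFP against ALDH1B1), 98% (inhibitor), 89% (difference) and 96% (clone against parental line). In that order, 17 of 217, 24 of 222, 8 of 195 and 10 of 206 calls were false. The shares for EGFP against ALDH1B1 and for the inhibitor exceed 0.05. Members called between EGFP and ALDH1B1 differed by at most 0.29 on the log2 scale. Recovery of shifts that small was not tested. Alternatives were RLE factors, no filter, DESeq2 1.42.0, each library left out, a replicate block on the numbered libraries, 1 fit over 12 libraries, removal of a trend over gene length, and genes of either table. The members and lists were chosen with earlier results of these data known. Values are given in full for members past 0.05 in a stated comparison whose mean reached 5 CPM. They are also given for HSPA5, XBP1, ATF6, ERN1, EIF2AK3 and ALDH1B1. Up to 2 called genes with the smallest p qualified from each pathway list and comparison, but only some of these are shown. The pathway genes shown, and members named beyond the rule, were chosen after their values were seen. A fold change of an uncalled member is printed from a size of 0.15 on the log2 scale or for those sensors and HSPA5. One inhibitor library carries no replicate number in its column.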

Additional observations from a re-analysis of the deposited data

Results flagged for a closer look

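No member was singled out, but 8 genes of the wider pathway lists had effects that differed between the clone (EGFP minus ALDH1B1) and the inhibitor (inhibitor minus DMSO) past an edgeR adjusted p of 0.05 over 19075 genes, of which 5.11% passed. The difference of the log2 fold changes, clone minus inhibitor, was positive for ASNS, the asparagine synthetase (0.55, edgeR adjusted p = 0.0026), and for FKBP9, an ER prolyl isomerase (0.41, edgeR adjusted p = 0.0043). It was negative for ATF5 (-0.45, edgeR adjusted p = 0.0031), TMUB1, a membrane protein of ER-associated degradation (-0.44, edgeR adjusted p = 0.0048), and PRDX4, an ER peroxiredoxin (-0.29, edgeR adjusted p = 0.017). It was also negative for UBE2J2, a ubiquitin-conjugating enzyme of the ER membrane (-0.35, edgeR adjusted p = 0.023), BAX, a pro-apoptotic protein (-0.44, edgeR adjusted p = 0.030), and ASNA1, the ATPase that delivers tail-anchored proteins (-0.31, edgeR adjusted p = 0.038). Shared exon bases make up 44.6% of ASNS, on the same strand, and 23.7% of ATF5, chiefly with NUP62 on the opposite strand. The calls of PRDX4, UBE2J2, ASNA1 and BAX ended when single libraries were left out, PRDX4 without ALDH1B1 replicate 1, EGFP replicate 1 or DMSO replicate 3. The UBE2J2 call ended without ALDH1B1 replicate 1 or 2, EGFP replicate 1 or 3, DMSO replicate 2 or 3, or the inhibitor library with no number. The ASNA1 call ended without any 1 of these or DMSO replicate 1 or inhibitor replicate 3, and also without the filter on low counts. The BAX call ended without ALDH1B1 replicate 1 or 2, EGFP replicate 3, DMSO replicate 1 or 2, inhibitor replicate 3 or the inhibitor library with no number.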

How the results depend on the processing

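Between EGFP and ALDH1B1 in the clone, members called higher numbered 3 without the filter on low counts, 3 in 1 fit over 12 libraries and 3 with the trend over gene length removed, and members called lower numbered 8 without the filter, against 5 and 5. All genes called numbered 3539 without the filter, 2709 in 1 fit over 12 libraries and 3441 with the length trend removed, against 3059. With the inhibitor, 1402 genes passed without the filter, against 712, with 1 member higher and 5 lower. DESeq2 gave 1 member higher and 1 lower there, and the fit over 12 libraries 1 higher. For the difference of both effects DESeq2 gave 1 member higher and 1 lower, and dropping the filter 1 lower. Leaving out each library in turn gave 1371 to 3951 genes, 2 to 7 members higher and 1 to 7 lower in the clone, 171 to 832 genes, 0 to 1 members higher and 0 to 4 lower with the inhibitor, and 392 to 1003 genes with 0 to 1 members higher and 0 to 1 lower for the difference. Clone against parental line gave 13808 to 14712 genes, with 19 to 21 members higher and 10 to 11 lower. The causes of these shifts were not tested.

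Signs turned for values near 0 and for DERL3, which has few reads. In the clone, the log2 fold change of ATF6 was -0.0172 with the length trend removed, and leaving out libraries gave -0.0179 to 0.0610 for ATF6, -0.0484 to 0.0053 for HSPA5 and -0.0019 to 0.0555 for XBP1. With the inhibitor, ATF6 was 0.0048 without the filter, 0.0130 over 12 libraries and 0.0011 with the length trend removed, and XBP1 -0.0031 with the length trend removed. Leaving out libraries gave -0.0333 to 0.0379 for XBP1, -0.0235 to 0.0122 for ATF6, -0.0945 to 0.0165 for ERN1, -0.0649 to 0.732 for DERL3 and -0.0417 to 0.0522 for ALDH1B1. For the difference, XBP1 was 0.0063 with RLE factors, 0.0176 without the filter and 0.0017 in DESeq2, and leaving out libraries gave -0.0402 to 0.0413 for XBP1 and -0.0386 to 0.0418 for ATF6.

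Same-numbered libraries did not deviate together (correlations of -0.0018, -0.038 and 0.029 in the clone, 0.0070 and -0.035 in the parental line). Other pairs in the parental line ran from -0.17 to 0.17. These values do not show pairing by number and cannot exclude it. The replicate block was fitted on numbered libraries only, so the inhibitor library with no number was left out of it. With the block, 3563 genes and 5 members higher and 7 lower passed in the clone, and 552 genes and 0 members with the inhibitor. The block turned the sign of XBP1 to -0.0032 with the inhibitor and to 0.0245 for the difference, and put the DERL1 call between clone and parental line at an edgeR adjusted p of 0.0503. It also ended the calls of PRDX4 and ASNA1 for the difference and of SRP19, BAX and CEBPB with the inhibitor, and added MANF and SELENOS in the clone. The ASNA1, SRP19, BAX and CEBPB calls also ended when only the unnumbered inhibitor library was left out. For these calls and for the 552 genes, blocking and the missing library cannot be told apart. Depth limits DERL3 most, with 7 reads in its lowest library.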
